A study of Mus musculus with 6 samples.

Results

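Leukemias 92 and 1, which arose in the same mouse model, were compared with each other. The comparison rests on 4 of the 6 libraries of the study, 2 of each leukemia, and the 2 libraries of wild-type pro-B cells served as a reference level. The members were taken from the labels of the samples and the column names of the count table, not from any measured value.

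The leukemias were grown from bone marrow cells of Mll-Af4 mice aged 6 to 8 weeks, which were depleted of mature lineages and sorted as c-Kit+ and Sca1+. These cells received a retrovirus carrying Cre and TdTomato, were sorted for Tomato, and then received a retroviral vector with N-RasG12D. They were injected into lethally irradiated mice together with wild-type whole bone marrow as helper cells. Both leukemias therefore share the Mll-Af4 allele, Cre and the N-RasG12D virus, and other blood cells of the hosts can descend from the wild-type helper marrow. The pro-B cells were wild-type bone marrow cells sorted as B220+ CD43+ IgM-. The labels give the leukemias the numbers 1 and 92 and number 2 replicates in each group. They do not say that the replicates are separate animals, so a p-value below may not measure spread between animals. The comparison is between 2 individual leukemias. The main test takes a common spread per gene over the 3 groups, although their pairs differ unequally.

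MLL-AF4 joins the amino-terminal part of the histone methyltransferase MLL1 to AF4, a scaffold of the transcription elongation machinery, and is found in acute lymphoblastic leukemias with an early B-cell phenotype. N-RasG12D is a RAS protein locked in its active state that signals through RAF, MEK and ERK. Early B-lineage cells assemble the pre-B receptor from the surrogate light chain (Vpreb1, Igll1) and the signalling chains Cd79a and Cd79b, cut their antigen receptor genes with Rag1 and Rag2, and take up surface proteins such as Cd22, Ms4a1 and MHC class II as they mature. Leukemias that start from the same engineered lesions can differ in the stage they resemble, in their rate of division and in genes switched on or off in 1 clone.

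All 4 leukemia libraries carried B-lineage transcripts. Levels below are CPM, which are counts per 1000000 counts of the TMM-scaled library and are not corrected for gene length, so they compare libraries and not genes. Cd79a, a signalling chain of the B-cell receptor, stood at 992 and 1370 CPM in leukemia 1 and at 1371 and 1442 CPM in leukemia 92, with 450 and 412 CPM in the pro-B cells (values in the order replicate 1, replicate 2 here and below). Pax5, a factor of B-cell identity, stood at 146 and 129 CPM in leukemia 1 and at 127 and 127 CPM in leukemia 92. Vpreb1, a surrogate light chain gene, stood at 461 and 880 CPM in leukemia 1 and at 442 and 461 CPM in leukemia 92. Dntt, the template-free polymerase of early lymphocytes, stood at no more than 1.11 CPM in any leukemia library and at 969 and 604 CPM in the pro-B cells. The pro-B libraries also carried markers of other cells that the gate can hold: Siglech of plasmacytoid dendritic cells at 1368 and 1544 CPM and Ncr1 of NK cells at 63.8 and 59.6 CPM.

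The libraries held 22153444 to 27444759 gene counts, and 3 counts corresponded to 0.111 to 0.140 CPM. The 2 leukemia 1 libraries differed from each other more than either did from leukemia 92. The SD of log2 differences over genes (prior count 2) was 1.33 for the leukemia 1 pair, 0.40 for the leukemia 92 pair and 1.09 to 1.23 between a library of leukemia 1 and 1 of leukemia 92. Replicate 2 of leukemia 1 stood apart in its granulocyte transcripts: the summed level of 32 granulocyte genes was 23106 CPM there, against 2246 CPM in replicate 1, 4481 and 3466 CPM in leukemia 92 and 1414 and 1544 CPM in the pro-B cells. S100a8, an abundant neutrophil protein, stood at 44.9 and 3610 CPM in leukemia 1 and at 203 and 123 CPM in leukemia 92. Igkc, the kappa light chain constant region, stood at 1.22 and 193 CPM in leukemia 1 and at 6.25 and 4.95 CPM in leukemia 92. Of 32 T and NK cell genes 28 were higher in that library than in replicate 1, and in 24 it was the highest leukemia library, as for Cd3e at 0.325 and 3.84 CPM in leukemia 1 and at 0 and 0.0467 CPM in leukemia 92. For 14 of the 32 both leukemia 92 libraries lay below both leukemia 1 libraries (43.8%, against 25.8% of all genes tested). For 4 they lay above (12.5%, against 25.4%), and the median log2 difference was -2.81. Against this lean, the 2 called members of that list (6.25%, against 3.09% of all genes called) were higher in leukemia 92. Cd5 is a surface protein of T cells and some B cells. It stood at 11.1 and 7.61 CPM in leukemia 1 and at 27.7 and 30.6 CPM in leukemia 92. The NK receptor Klrd1 stood at 1.30 and 2.88 CPM in leukemia 1 and at 18.7 and 13.7 CPM in leukemia 92. The 30 monocyte and macrophage genes tested had 0 calls by edgeR. An unadjusted p below 0.05 took 5 higher and 4 lower, against 1836 and 1923 of all 14979 genes tested. DESeq2 called 5 higher and 6 lower, against 1325 and 1351 of 23173 genes. Their list summed to 1349 and 2625 CPM in leukemia 1 and to 3271 and 2913 CPM in leukemia 92. Such sums weight genes with high CPM most. The median log2 difference of the 30 genes was -0.71, and leukemia 1 replicate 2 was the highest leukemia library in 22. The macrophage marker C1qa stood at 0.203 and 39.9 CPM in leukemia 1 and at 0.411 and 0.420 CPM in leukemia 92. Cd14, a monocyte marker, went the other way and was far higher in both leukemia 92 libraries (values under Other observations). Both leukemia 92 libraries lay above both leukemia 1 libraries for 6 of the 30 genes and below them for 5. These are 20.0% and 16.7%, below the 25.4% and 25.8% of all genes tested. Y-linked transcripts gave 121 and 1205 counts in leukemia 1, and 1 and 18 in leukemia 92. In bulk RNA a change in the share of a cell type and a change in RNA per cell cannot be told apart, and the part of these other cells in the differences below was not tested. A gene is therefore said below to agree in leukemia 1 when the larger of its 2 values (CPM + 1) was at most 1.5 times the smaller. This holds for 63.6% of the genes tested, and because it uses the libraries that are compared it is a description only.

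Of 14979 genes tested, 463 differed between the leukemias at a Benjamini-Hochberg adjusted p under 0.05 (edgeR quasi-likelihood test over all 6 libraries), which is 3.09% of the genes tested. Of these, 273 (1.82%) were higher and 190 (1.27%) lower in leukemia 92, and 225 and 142 differed at least 2-fold. The leukemia 1 libraries agreed on 256 of the higher and 161 of the lower genes. In every called gene both leukemia 92 libraries lay on the same side of both leukemia 1 libraries, a separation that 25.4% of all genes tested showed upward and 25.8% downward. The median log2 difference over all genes tested was -0.08, and the smallest adjusted p was 0.0131. The number of calls depends on which libraries enter the fit. With either leukemia 92 library or either pro-B library left out, or with the 4 leukemia libraries alone, edgeR called 0 genes (933 to 1284 higher and 619 to 1082 lower without adjustment of p). DESeq2 called 1325 higher and 1351 lower. With either leukemia 1 library left out, and with the lone sample then assumed to vary like the other groups, edgeR called 3869 to 3909 higher and 4106 to 4224 lower, and all 463 calls were kept in both fits.

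**Figure D1:**
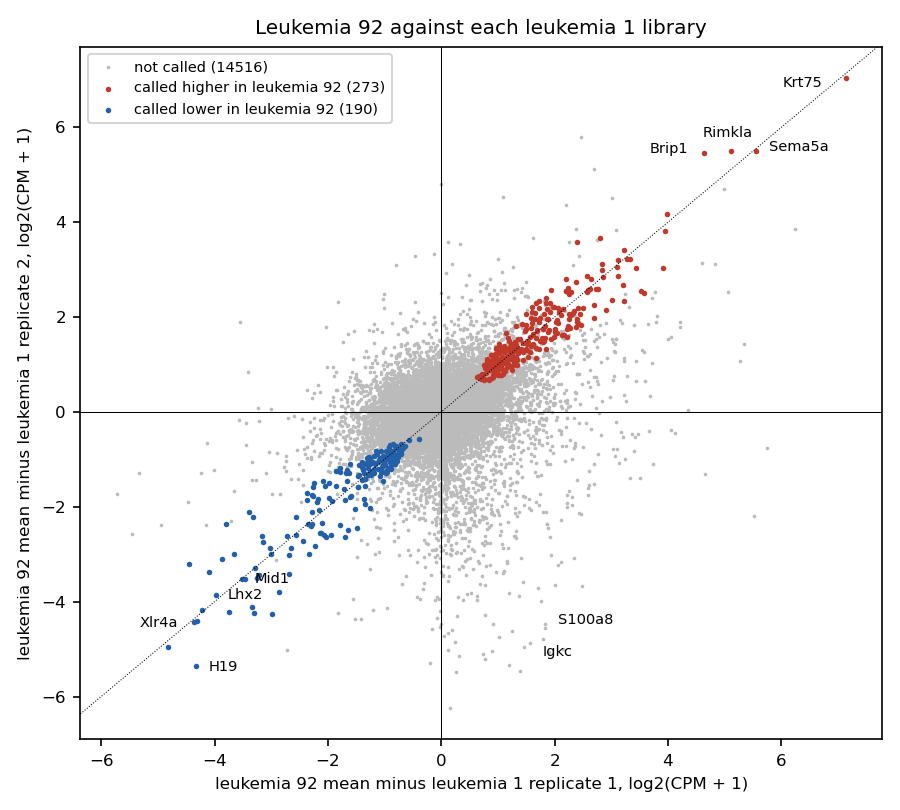
Each point is 1 of the genes tested. The x axis is the mean of leukemia 92 minus leukemia 1 replicate 1 and the y axis the same mean minus leukemia 1 replicate 2, both as log2(CPM + 1); red and blue points are the 273 genes called higher and the 190 called lower, grey points were not called, and the dotted line marks equal differences. Called genes lie along the dotted line, while genes such as S100a8 and Igkc lie to its lower right because leukemia 1 replicate 2 was the only leukemia library with a high level of them.

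The largest differences were genes with hardly a read in 1 of the leukemias. Krt75, a keratin of the hair follicle, stood at 159 and 120 CPM in leukemia 92, at 0 and 0.0739 CPM in leukemia 1 and at 0 in both pro-B libraries. Its 6438 counts in leukemia 92 against 2 in leukemia 1 gave a ratio of 3637 (95% exact interval 1006 to 30039, counting error only), with an adjusted p of 0.0229 (edgeR). In annotation order its 4 nearest genes in the table, keratins among them, stood at no more than 0.28 CPM in any leukemia library. Sema5a, a semaphorin of axon guidance, stood at 54.2 and 38.0 CPM in leukemia 92, at 0 and 0.0370 CPM in leukemia 1 and at 2.63 and 2.03 CPM in the pro-B cells. Its 2133 counts against 1 gave a ratio of 2410 (95% exact interval 432 to 95234), and the small nucleolar RNA gene Snord123 next to it had 396 counts against 1. Reads of Snord123 and Sema5a may not be separable where the genes overlap.

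The other large rises included enzymes and endocytic proteins. Rimkla, a ligase that makes the neuropeptide N-acetylaspartylglutamate, stood at 54.6 and 66.8 CPM in leukemia 92 and at 0.772 and 0.370 CPM in leukemia 1 (log2 difference 6.73, SE 0.49). Amph, the endocytic protein amphiphysin, stood at 19.1 and 26.0 CPM in leukemia 92 and at 0.487 and 0.296 CPM in leukemia 1 (log2 difference 5.83, SE 0.56). Ston1, an endocytic adaptor, stood at 20.1 and 11.4 CPM in leukemia 92 and at 0.0812 and 0.185 CPM in leukemia 1 (log2 difference 6.82, SE 0.57). All 3 were also above the pro-B cells, which had 3.67 and 4.13 CPM of Ston1, 1.52 and 0.897 CPM of Rimkla and at most 0.0370 CPM of Amph. Ppm1j, Prkcz and Napepld completed this set with log2 differences of 3.60, 3.07 and 3.01; they encode a PP2C-type phosphatase, an atypical protein kinase C and an enzyme that makes N-acylethanolamines. The adjusted p of these 6 genes lay between 0.0229 and 0.0308 (edgeR).

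Receptors, a ligand and an enzyme that modifies receptors made up the rest of the 12 largest rises. Lfng, a Fringe enzyme that adds sugars to Notch receptors, stood at 250 and 224 CPM in leukemia 92, at 26.5 and 24.8 CPM in leukemia 1 and at 30.9 and 26.5 CPM in the pro-B cells (log2 difference 3.21, SE 0.15, adjusted p 0.0178, edgeR). Leukemia 1 was thus at the pro-B level and leukemia 92 above it. Erbb3, a neuregulin receptor, showed the other arrangement, standing at 21.8 and 22 CPM in leukemia 92, at 1.62 and 2.14 CPM in leukemia 1 and at 26.2 and 27.2 CPM in the pro-B cells (log2 difference 3.53, SE 0.21). Ccr6, the receptor of the chemokine Ccl20, stood at 48.5 and 27.4 CPM in leukemia 92, at 4.47 and 3.88 CPM in leukemia 1 and at 2.11 and 1.95 CPM in the pro-B cells. Tnfsf8, the CD30 ligand, stood at 14.0 and 10.3 CPM in leukemia 92 and at 1.54 and 0.961 CPM in leukemia 1. The leukemias do not overlap for these 4 genes because the choice of the largest differences required it.

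**Figure D2:**
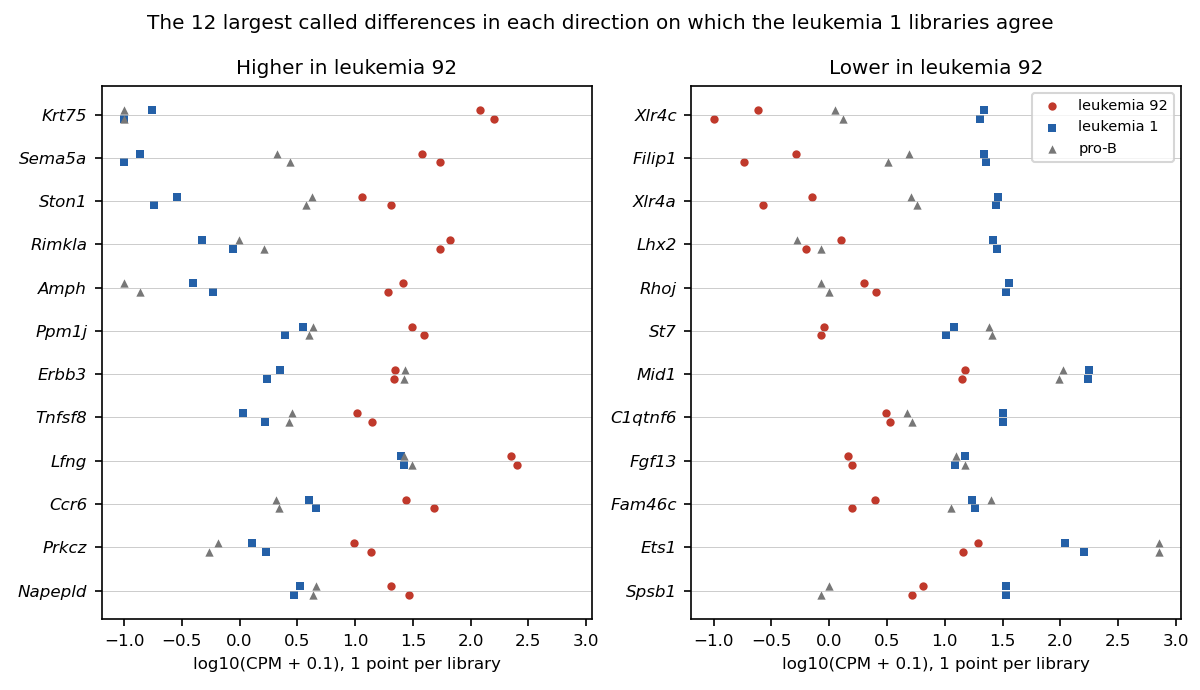
Levels in each library of the 12 largest called rises (left) and falls (right) among genes on which the leukemia 1 libraries agree. The x axis is log10(CPM + 0.1), a log scale; red circles are leukemia 92, blue squares leukemia 1 and grey triangles pro-B cells, 2 points a group. In all 24 genes the leukemia 92 and leukemia 1 points are apart, as the choice of genes required. The pro-B level lies with leukemia 1 for Lfng, with leukemia 92 for Erbb3 and Lhx2, and beyond both for Ets1.

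Among the largest falls were 2 genes of the Xlr4 family. The Xlr3, Xlr4 and Xlr5 genes are lymphocyte-regulated genes clustered on the X chromosome, and their copies are nearly identical. Xlr4a stood at 27.5 and 29.0 CPM in leukemia 1, at 0.164 and 0.607 CPM in leukemia 92 and at 5.59 and 4.99 CPM in the pro-B cells (log2 difference -6.20, SE 0.60, adjusted p 0.0271, edgeR). Xlr4c stood at 20.1 and 21.7 CPM in leukemia 1, at 0 and 0.140 CPM in leukemia 92 and at 1.22 and 1.01 CPM in the pro-B cells. Its 1082 counts against 3 gave a ratio of 319 (95% exact interval 109 to 1550). The third copy, Xlr4b, stood at 20.5 and 22.8 CPM in leukemia 1 and at 30.8 and 29.9 CPM in leukemia 92, above the 6.26 and 5.54 CPM of the pro-B cells (log2 difference 0.49, SE 0.15, adjusted p 0.14, edgeR). Xlr3a, Xlr3c and Xlr5a had no reads in any leukemia library. How reads were split among the copies during the authors' counting is not stated, so the values of the single copies are uncertain.

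The 3 copies that part in this way have almost the same sequence before their starts. RefSeq promoter windows of build GRCm38.p6, a build other than the mm9 of the counts, share a stretch of 220 bases without gaps, at chrX:73082538-73082757 (- strand), chrX:73214090-73214309 (+ strand) and chrX:73243131-73243350 (- strand). The stretch ends 30, 23 and 0 bases before the annotated start of Xlr4a, Xlr4b and Xlr4c. It is printed 5′ to 3′ to show how little separates the copy with reads in leukemia 92 from the copies nearly without, with capitals marking bases that differ from Xlr4b.
Xlr4a: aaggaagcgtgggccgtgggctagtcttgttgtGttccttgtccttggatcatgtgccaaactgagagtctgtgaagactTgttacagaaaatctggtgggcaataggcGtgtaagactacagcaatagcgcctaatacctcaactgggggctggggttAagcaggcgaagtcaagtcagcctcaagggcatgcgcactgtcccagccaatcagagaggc
Xlr4b: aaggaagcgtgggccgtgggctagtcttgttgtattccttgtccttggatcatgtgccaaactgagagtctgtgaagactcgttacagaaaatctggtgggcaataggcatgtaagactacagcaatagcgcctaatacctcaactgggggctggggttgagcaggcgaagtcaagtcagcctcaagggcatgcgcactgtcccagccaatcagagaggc
Xlr4c: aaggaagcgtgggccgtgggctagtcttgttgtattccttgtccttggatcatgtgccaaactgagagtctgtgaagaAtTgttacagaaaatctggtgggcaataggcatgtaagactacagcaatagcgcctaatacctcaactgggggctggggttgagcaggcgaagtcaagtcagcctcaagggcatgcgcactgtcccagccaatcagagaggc
Xlr4a differed from Xlr4b at 4 of the 220 bases and Xlr4c at 2, and 1 of these differences is shared by Xlr4a and Xlr4c (C81T, counted from the first base printed, with the base of Xlr4b first). No binding or methylation was measured, and the sequences are a description only.

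The other large falls included transcription factors and cytoskeletal regulators. Lhx2, a LIM homeobox factor, stood at 28.2 and 25.9 CPM in leukemia 1, at 0.534 and 1.17 CPM in leukemia 92 and at 0.740 and 0.429 CPM in the pro-B cells (log2 difference -4.99, SE 0.51). The pro-B cells thus lay with leukemia 92. Ets1, an ETS factor of lymphocytes, stood at 160 and 109 CPM in leukemia 1, at 14.4 and 19.4 CPM in leukemia 92 and at 715 and 709 CPM in the pro-B cells (log2 difference -2.99, SE 0.26). Both leukemias lay below the pro-B cells, leukemia 92 further. Mid1, an X-linked ubiquitin ligase that binds microtubules, had the smallest p of all genes, standing at 175 and 176 CPM in leukemia 1, at 14.0 and 14.9 CPM in leukemia 92 and at 97.1 and 105 CPM in the pro-B cells (log2 difference -3.60, SE 0.13, adjusted p 0.0131, edgeR). Rhoj, a small GTPase, stood at 33.9 and 35.6 CPM in leukemia 1 and at 2.42 and 1.92 CPM in leukemia 92, with at most 0.888 CPM in the pro-B cells. Filip1, which binds filamin A, stood at 22.4 and 21.5 CPM in leukemia 1 and at 0.0822 and 0.420 CPM in leukemia 92. St7, C1qtnf6, Fgf13, Fam46c and Spsb1 were the rest of the 12 falls, at log2 differences of -3.83, -3.36, -3.24, -3.19 and -2.55.

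Brip1 is a helicase that works with BRCA1 in homologous recombination and is also a Fanconi gene. It had the highest CPM of the genes called at more than 4 log2 units, a rank not corrected for gene length. It stood at 1297 and 1204 CPM in leukemia 92, at 49.4 and 27.5 CPM in leukemia 1 and at 48.0 and 45.1 CPM in the pro-B cells. The leukemia 1 libraries did not agree within 1.5 times, but both lay far below leukemia 92 (log2 difference 5.02, SE 0.34, adjusted p 0.0229, edgeR). Of the genes next to it, Gm11477 was higher in leukemia 92 at a low level, with 0.986 and 1.35 CPM against 0.122 and 0.0739 CPM (log2 difference 3.52, adjusted p 0.0431). The next one, 4632419I22Rik, was lower, with 38.8 and 38.3 CPM in leukemia 92 against 96.1 and 97.5 CPM in leukemia 1 (log2 difference -1.33, adjusted p 0.0229). The 2 nearest genes on each side were looked up for 26 genes, the 24 largest differences with Brip1 and H19. Of the 53 neighbours that were tested, 3 were called (5.66%, against 3.09% of all genes): these 2 and Snord123, whose reads may not be separable from Sema5a. H19, an imprinted RNA of fetal tissues, was the counterpart among the falls, standing at 120 and 248 CPM in leukemia 1, at 5.63 and 4.48 CPM in leukemia 92 and at 0 and 0.0390 CPM in the pro-B cells (log2 difference -5.18, SE 0.49, adjusted p 0.0271, edgeR). Igf2, which lies beside H19, stood at 2.72 and 0.702 CPM in leukemia 1 and at 0.288 and 0 CPM in leukemia 92.

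Most genes of DNA replication had lower levels in both leukemia 92 libraries. Of 41 replication genes tested, 7 were called lower and 0 higher, which is 17.1% called against 3.09% of all genes. In 35 (85.4%, against 25.8% of all genes) both leukemia 92 libraries lay below both leukemia 1 libraries. Separated upward was 1, Orc3 (adjusted p 0.43, edgeR). The median log2 difference of the 41 genes was -0.70, against -0.08 over all genes. Pcna, the sliding clamp of DNA polymerases, stood at 442 and 508 CPM in leukemia 1, at 248 and 275 CPM in leukemia 92 and at 508 and 493 CPM in the pro-B cells (log2 difference -0.86, SE 0.13, adjusted p 0.047, edgeR). Mcm6, a subunit of the replicative helicase, stood at 462 and 406 CPM in leukemia 1 and at 234 and 253 CPM in leukemia 92, and Mcm5, Mcm7, Cdc45, Rfc3 and Rrm2 were also called lower, at log2 differences of -0.69 to -0.93. The summed level of the replication list was 6199 and 5555 CPM in leukemia 1, then 3513 and 3765 CPM in leukemia 92 and 6714 and 6690 CPM in the pro-B cells. Leukemia 1 thus lay near the pro-B level and leukemia 92 below it. In the fits without replicate 1 or replicate 2 of leukemia 1, 34 and 36 of the 41 genes were called lower, against 26.0% and 27.3% of all genes. In both of these fits 31 were, against 10.7% of all genes (12.3% higher).

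Mitotic genes showed the same direction. Of 39 tested, 9 (23.1%, against 3.09% of all genes) were called lower and 0 higher in leukemia 92. Separated downward were 36 (92.3%, against 25.8% of all genes) and upward 0, and the median log2 difference was -0.67. Bub1b, a spindle checkpoint kinase, stood at 210 and 223 CPM in leukemia 1, at 98.2 and 107 CPM in leukemia 92 and at 315 and 315 CPM in the pro-B cells (log2 difference -1.08, SE 0.12, adjusted p 0.0291, edgeR). Top2a, the topoisomerase of dividing cells, stood at 780 and 740 CPM in leukemia 1, at 432 and 468 CPM in leukemia 92 and at 1587 and 1528 CPM in the pro-B cells. Mki67, the proliferation marker, stood at 793 and 878 CPM in leukemia 1 and at 522 and 532 CPM in leukemia 92, and missed the threshold (adjusted p 0.054). The summed level of the mitotic list was 5037 and 5878 CPM in leukemia 1, then 3207 and 3421 CPM in leukemia 92 and 8942 and 8840 CPM in the pro-B cells, so here both leukemias lay below the pro-B cells. With replicate 1 or replicate 2 of leukemia 1 left out, 39 and 28 of the 39 were called lower, against 26.0% and 27.3% of all genes.

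The ATR and CHK1 checkpoint, which guards stalled replication forks and includes a drug target named in the title of the study, leaned the same way with few calls. Of 22 genes tested, 1 was called lower and 0 higher (4.55%, near the 3.09% of all genes), 14 were separated downward (63.6%, against 25.8% of all genes) and 0 upward, and the median log2 difference was -0.45. The called gene was Rpa2, a subunit of the single-strand binding protein, at 114 and 98.3 CPM in leukemia 1 and at 59.9 and 61.1 CPM in leukemia 92 (log2 difference -0.81, SE 0.13, adjusted p 0.0477, edgeR). Chek1 stood at 78.8 and 48.5 CPM in leukemia 1 and at 29.9 and 30.0 CPM in leukemia 92 (adjusted p 0.088). Atr itself stood at 79.1 and 60.0 CPM in leukemia 1 and at 57.4 and 61.4 CPM in leukemia 92, and these overlap (adjusted p 0.44). Of 31 homologous recombination and Fanconi genes, 3 were called lower, Bard1 and Fancc among them, and Brip1 was called higher. This is 12.9% called, against 3.09% of all genes. Separated downward were 20 and upward 2 (64.5% and 6.45%, against 25.8% and 25.4% of all genes). Bard1, the partner of BRCA1, stood at 48.5 and 37.9 CPM in leukemia 1, at 16.8 and 18.7 CPM in leukemia 92 and at 47.9 and 43.2 CPM in the pro-B cells (log2 difference -1.28, SE 0.18, adjusted p 0.0431, edgeR). Brip1 thus went against most of its list. Because the CPM of Brip1 were so high in leukemia 92, the summed level of the list was higher there, at 2285 and 2230 CPM against 1853 and 1255 CPM.

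**Figure D3:**
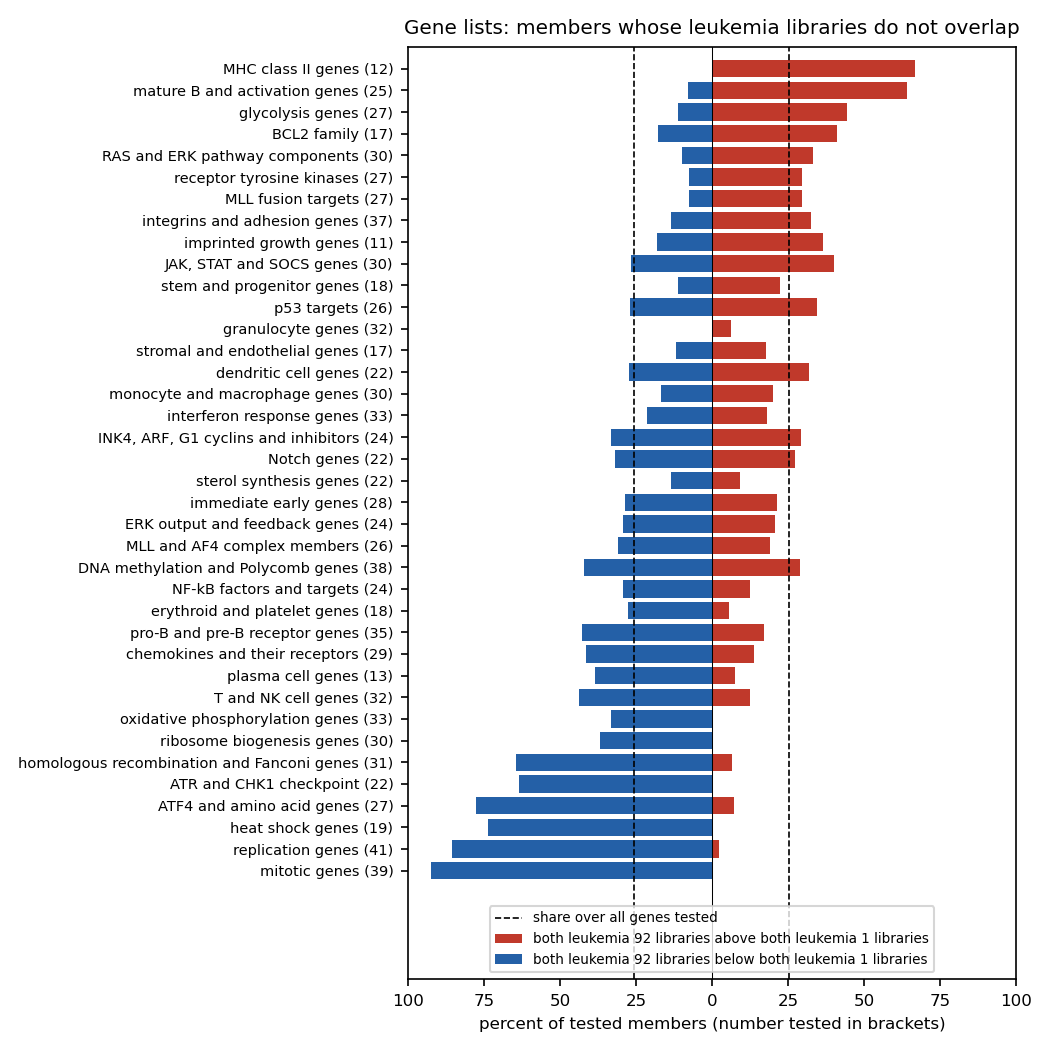
For each gene list with at least 10 genes tested, the percent of tested members for which both leukemia 92 libraries lay above (red, right) or below (blue, left) both leukemia 1 libraries; the number tested is in brackets and dashed lines mark the shares over all genes tested, 25.4% upward and 25.8% downward. Mitotic and replication genes reach furthest to the left and MHC class II and mature B-cell genes furthest to the right.

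Most genes of the amino acid response had lower levels in leukemia 92 too. ATF4 is the transcription factor that drives amino acid synthesis and uptake under stress. Of 27 genes of this list tested, 4 (14.8%, against 3.09% of all genes) were called lower and 0 higher. Separated downward were 21 and upward 2 (77.8% and 7.41%, against 25.8% and 25.4% of all genes), and the median log2 difference was -0.67. Asns, asparagine synthetase, stood at 106 and 75.6 CPM in leukemia 1, at 19.1 and 23.9 CPM in leukemia 92 and at 14.7 and 12.9 CPM in the pro-B cells (log2 difference -2.08, SE 0.23, adjusted p 0.0308, edgeR). Atf4 stood at 763 and 642 CPM in leukemia 1, at 331 and 364 CPM in leukemia 92 and at 327 and 330 CPM in the pro-B cells. For both genes leukemia 92 lay near the pro-B level. Phgdh, the first enzyme of serine synthesis, and Eif4ebp1, a repressor of translation, were the other called members (log2 differences -1.19 and -0.87). Trib3, a pseudokinase induced by ATF4, stood at 44.3 and 4.80 CPM in leukemia 1 and at 1.48 and 1.31 CPM in leukemia 92, an example on which the leukemia 1 libraries did not agree (adjusted p 0.11). Of 19 heat shock genes 1 was called (5.26%, against 3.09% of all genes), Dnajb1, lower in leukemia 92. In this list 14 were separated downward (73.7%, against 25.8% of all genes) and 0 upward. Ribosome biogenesis (30 tested), oxidative phosphorylation (33), glycolysis (27) and sterol synthesis genes (22) had 0 calls by edgeR. At an unadjusted p under 0.05 these lists had 0 genes higher and 6 lower, 0 and 2, 5 and 1, and 0 and 0, and DESeq2 called 0 and 4, 0 and 2, 3 and 1, and 0 and 0. Of all 14979 genes tested, 1836 were higher and 1923 lower at that p, and DESeq2 called 1325 and 1351 of 23173. Glycolysis genes were separated upward in 12 and downward in 3 (44.4% and 11.1%, against 25.4% and 25.8% of all genes), while ribosome biogenesis and oxidative phosphorylation genes were separated upward in 0 and downward in 11 each (36.7% and 33.3%). For sterol synthesis these counts were 2 and 3 (9.09% and 13.6%).

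Most genes of more mature B cells had higher levels in both leukemia 92 libraries. Of 25 mature B and activation genes tested, 4 were called higher and 1 lower (20.0% in all, against 3.09% of all genes), 16 were separated upward and 2 downward (64.0% and 8.00%, against 25.4% and 25.8%), the leukemia 1 libraries agreed on 11, and the median log2 difference was 0.63. Fcrl1, an Fc receptor-like protein of B cells, stood at 16.3 and 16 CPM in leukemia 1, at 55.1 and 49.3 CPM in leukemia 92 and at 5.11 and 5.03 CPM in the pro-B cells (log2 difference 1.69, SE 0.14, adjusted p 0.0229, edgeR). Ltb, the cytokine lymphotoxin beta, stood at 9.02 and 8.83 CPM in leukemia 1, at 29.9 and 32.9 CPM in leukemia 92 and at 10.8 and 10.2 CPM in the pro-B cells, and Ccr6 was also called higher. S1pr1, the receptor that guides lymphocytes out of tissues, was the called fall, standing at 2.64 and 2.18 CPM in leukemia 1, at 0.164 and 0.140 CPM in leukemia 92 and at 30.1 and 29.7 CPM in the pro-B cells. Ms4a1, which encodes CD20, stood at 60.0 and 12.5 CPM in leukemia 1 and at 289 and 269 CPM in leukemia 92, separated but short of the threshold (adjusted p 0.10). Fcer2a, which encodes CD23, stood at 0.772 and 3.88 CPM in leukemia 1 and at 51.8 and 32.0 CPM in leukemia 92 (adjusted p 0.068). In both genes the spread within leukemia 1 was wide.

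The pro-B and pre-B receptor list moved in both directions. Of 35 tested, 2 were called higher (Cd22, Cd72) and 2 lower (Rag2, Foxo1), which is 11.4% against 3.09% of all genes. Separated upward were 6 and downward 15 (17.1% and 42.9%, against 25.4% and 25.8% of all genes). Cd22, an inhibitory receptor of B cells, stood at 71.3 and 69.3 CPM in leukemia 1, at 319 and 288 CPM in leukemia 92 and at 103 and 117 CPM in the pro-B cells (log2 difference 2.11, SE 0.14, adjusted p 0.0229, edgeR). Cd72, another inhibitory receptor, stood at 46.3 and 58.3 CPM in leukemia 1 and at 189 and 188 CPM in leukemia 92, against 206 and 242 CPM in the pro-B cells. Foxo1, a factor that drives Rag expression, stood at 254 and 239 CPM in leukemia 1 and at 117 and 118 CPM in leukemia 92. Rag2, a subunit of the recombinase, stood at 6.70 and 6.02 CPM in leukemia 1, at 1.77 and 1.78 CPM in leukemia 92 and at 47.3 and 37.4 CPM in the pro-B cells. Its partner Rag1 stood at 73.0 and 30.3 CPM in leukemia 1 and at 11.1 and 10.4 CPM in leukemia 92 (adjusted p 0.068). Of 13 plasma cell genes, Xbp1 and Herpud1, which serve the secretory pathway, were called lower and 0 higher (15.4%, against 3.09% of all genes).

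MHC class II genes differed between the leukemia 1 libraries as much as between the leukemias: their summed level was 909 and 3880 CPM in leukemia 1, then 4700 and 4011 CPM in leukemia 92 and 1730 and 2099 CPM in the pro-B cells. Of 12 tested, 2 were called higher in leukemia 92 (16.7%, against 3.09% of all genes called). These were H2-Eb2 and H2-DMb2, both of which agreed in leukemia 1. H2-DMb2, a chaperone of peptide loading, stood at 37.9 and 32.2 CPM in leukemia 1, at 160 and 144 CPM in leukemia 92 and at 6.89 and 9.51 CPM in the pro-B cells (log2 difference 2.12, SE 0.21, adjusted p 0.0271, edgeR). H2-Eb2 stood at 5.28 and 5.36 CPM in leukemia 1 and at 42.0 and 31.4 CPM in leukemia 92. Cd74, the invariant chain, stood at 412 and 1545 CPM in leukemia 1 and at 2484 and 2155 CPM in leukemia 92 (adjusted p 0.29). H2-Aa stood at 39.2 and 669 CPM in leukemia 1 and at 573 and 444 CPM in leukemia 92, so that leukemia 92 lay between the leukemia 1 libraries. Against replicate 1 alone 12 of the 12 were called higher, and against replicate 2 alone 6 were called higher and 2 lower. These fits called 25.2% and 24.5% of all genes higher, and 27.3% and 26.0% lower. Granulocyte and T cell transcripts, C1qa and Igkc were also higher in replicate 2 than in replicate 1 of leukemia 1. The part of other cells in the class II values was not tested.

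**Figure D4:**
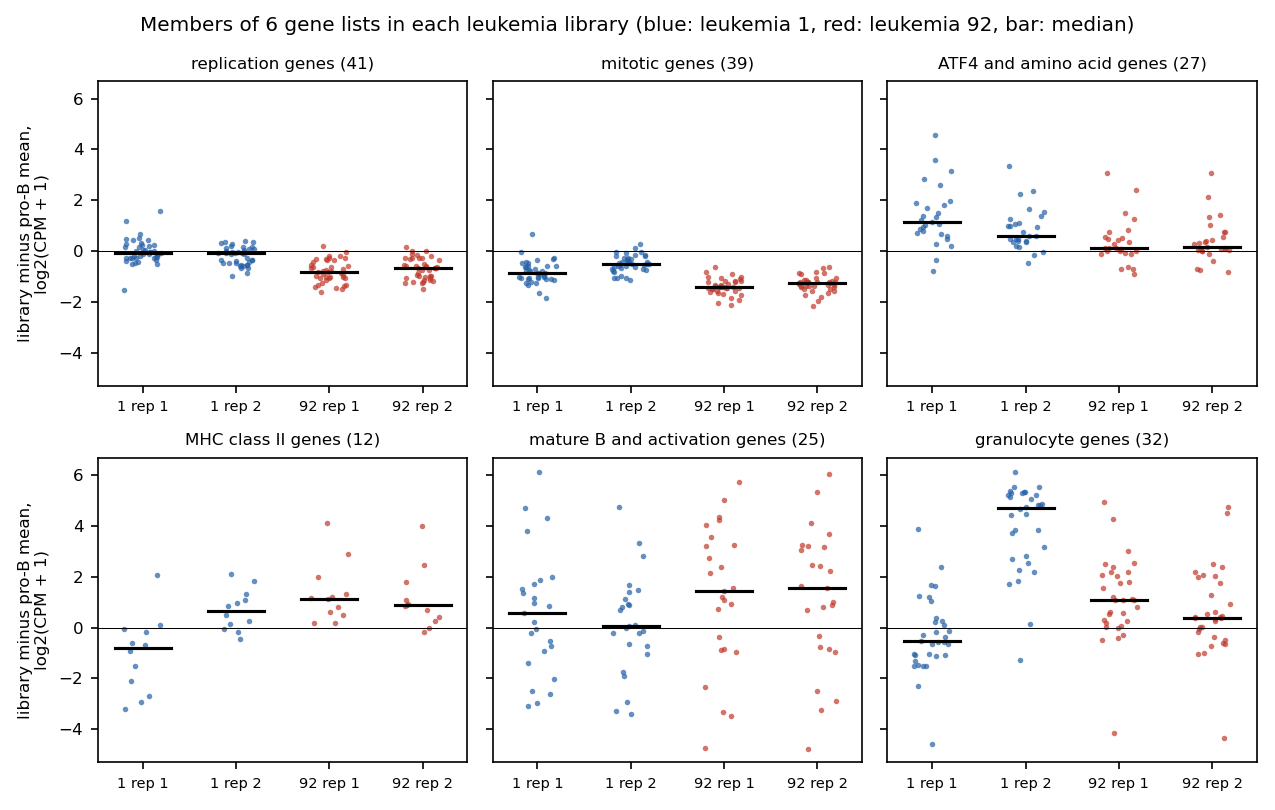
Members of 6 gene lists in each leukemia library (numbers tested in brackets). The y axis is the library minus the mean of the pro-B libraries as log2(CPM + 1), each point is 1 gene, black bars are medians, and the 4 positions are leukemia 1 replicates 1 and 2 (blue) and leukemia 92 replicates 1 and 2 (red). Replication and mitotic genes lie lower in both leukemia 92 libraries than in both leukemia 1 libraries, while granulocyte genes stand high in leukemia 1 replicate 2 alone and MHC class II genes stand low in leukemia 1 replicate 1 alone.

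The genes of the model did not pass the threshold over all 6 libraries, but DESeq2 called Nras and Meis1. For fits without a leukemia 1 library, which leave a single library in that group, only the differences are given. Nras stood at 371 and 343 CPM in leukemia 1, at 521 and 543 CPM in leukemia 92 and at 157 and 156 CPM in the pro-B cells (log2 difference 0.57, SE 0.11, adjusted p 0.064, edgeR), and reads of the virus and of the mouse gene are not told apart in the table. Nras was called higher by DESeq2 (log2 difference 0.58, adjusted p 2.05e-05). Without replicate 1 or replicate 2 of leukemia 1 its log2 difference was 0.64 and 0.52 (edgeR). Mll1 stood at 124 and 62.9 CPM in leukemia 1 and at 131 and 115 CPM in leukemia 92 (adjusted p 0.49, edgeR). Its log2 difference was 0.98 without replicate 1 of leukemia 1 and -0.0044 without replicate 2. Aff1, the mouse AF4 gene, stood at 233 and 125 CPM in leukemia 1 and at 192 and 167 CPM in leukemia 92, between the leukemia 1 libraries (log2 difference 0.00, SE 0.31). Without leukemia 1 replicate 2 this difference was -0.37, and without replicate 1 it was 0.53. Hoxa9, a classic target of MLL fusions, was near 0 in both leukemias, at 0 and 0.702 CPM in leukemia 1 and at 0.370 and 0.841 CPM in leukemia 92, against 6.74 and 6.63 CPM in the pro-B cells. Its log2 difference was 0.75 over all 6 libraries (adjusted p 0.76, edgeR) and -0.23 without replicate 1 of leukemia 1. Without replicate 2, a fit which leaves leukemia 1 at 0 counts, it was 6.86. Meis1 stood at 0.122 and 0.998 CPM in leukemia 1 and at 4.6 and 3.41 CPM in leukemia 92 (adjusted p 0.14, edgeR). It was called higher by DESeq2 (log2 difference 2.85, adjusted p 0.00891). Without replicate 1 or replicate 2 of leukemia 1 its log2 difference was 2.01 and 4.99 (edgeR). Of 27 MLL fusion targets tested, 1 (3.70%) was called, a share near the 3.09% of all genes. It was the survival gene Bcl2, at 30.5 and 24.4 CPM in leukemia 1 and at 66.4 and 60.1 CPM in leukemia 92 (log2 difference 1.20, SE 0.16, adjusted p 0.039).

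RAS signalling genes gave 1 call in each list, 3.33% of 30 pathway components and 4.17% of 24 output genes, which is near the 3.09% of all genes. Of the RAS and ERK components 10 were separated upward and 3 downward (33.3% upward, against 25.4% of all genes), and DESeq2 called 5 higher and 0 lower. Among them, Rasal3, a GTPase-activating protein that turns RAS off, was called higher, at 102 and 109 CPM in leukemia 1 and at 203 and 214 CPM in leukemia 92 (log2 difference 0.98, SE 0.12, adjusted p 0.0328, edgeR). Among the genes of ERK output and feedback, Ccnd1, the G1 cyclin D1, was called higher, at 317 and 284 CPM in leukemia 1, at 607 and 562 CPM in leukemia 92 and at 103 and 122 CPM in the pro-B cells. Dusp6, the ERK phosphatase that follows ERK activity, stood at 454 and 581 CPM in leukemia 1 and at 477 and 517 CPM in leukemia 92, which overlap, against 139 and 140 CPM in the pro-B cells. Of 26 p53 targets 0 were called by edgeR. An unadjusted p below 0.05 took 5 higher and 6 lower, against 1836 and 1923 of all 14979 genes tested. DESeq2 called 3 and 6, against 1325 and 1351 of 23173 genes. Separated upward were 9 of the p53 targets and downward 7 (34.6% and 26.9%, against 25.4% and 25.8% of all genes). Cdkn1a stood at 524 and 275 CPM in leukemia 1 and at 410 and 376 CPM in leukemia 92, above the 36.6 and 25 CPM of the pro-B cells. Of 27 receptor tyrosine kinases 3 were called higher (11.1%, against 3.09% of all genes called): Erbb3, Fgfr2 and Pdgfrb. Fgfr2 stood at 7.52 and 2.80 CPM in leukemia 92 and at 0.0406 and 0.0739 CPM in leukemia 1, with 243 counts against 3 (ratio 91.5, 95% exact interval 30.9 to 447).

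Some further lists held 1 or 2 calls, and in several the share called was near the 3.09% of all genes. It was 3.33% of 30 JAK, STAT and SOCS genes and 3.57% of 28 immediate early genes. It was 3.85% of 26 MLL and AF4 complex members, 4.17% of 24 NF-kB genes and 5.56% of 18 stem and progenitor genes. With 2 calls each, 9.09% of 22 Notch genes and 6.90% of 29 chemokine and chemokine receptor genes were called. Hes1, a target of Notch signalling, was lower in leukemia 92 while Lfng was higher, with Hes1 at 4.27 and 2.73 CPM in leukemia 1, at 0.205 and 0.327 CPM in leukemia 92 and at 27 and 27.9 CPM in the pro-B cells (log2 difference -3.70, SE 0.38, adjusted p 0.028, edgeR). Cxcl9, a chemokine induced by interferon gamma, stood at 8.41 and 6.17 CPM in leukemia 1 and at 0.0411 and 0.0934 CPM in leukemia 92. Gadd45b, a stress-induced gene, and Nfkbia, the inhibitor of NF-kB, were lower in leukemia 92 (log2 differences -2.49 and -1.21). Mllt3, which encodes the MLL partner AF9, was lower as well (log2 difference -1.64). Jak3, the kinase of common gamma chain receptors, and Lmo2, a progenitor factor, were higher (log2 differences 1.17 and 0.73).

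Set against the pro-B cells, the leukemia 1 mean was nearer than the leukemia 92 mean in most called genes, and also in most of all genes tested. For 207 of the 273 genes higher in leukemia 92 the pro-B mean lay nearer to leukemia 1, and for 66 nearer to leukemia 92. This is 75.8%, against 62.4% of all tested genes with a difference in that direction. The pro-B mean was below both leukemias for 135 of them, between them for 115 and above both for 23. For 147 of the 190 genes lower in leukemia 92 it lay nearer to leukemia 1, and for 43 nearer to leukemia 92, which is 77.4% against 58.3% of all such genes. Here the pro-B mean was above both leukemias for 101 genes, between them for 69 and below both for 20. These are counts of positions and were not tested. They use the mean of 2 unlike leukemia 1 libraries. The SD of log2 differences from a pro-B library was 1.85 to 1.87 for leukemia 1 replicate 1. It was 1.62 to 1.63 for replicate 2 and 1.90 to 1.93 for the leukemia 92 libraries.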

How the data were processed

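RNA of bone marrow cells was sequenced with TruSeq RNA kits, per the labels' protocols. The deposited values are raw counts of reads per gene that the authors made, for 33924 genes and 5 entries that name no gene. These 5 held 34.0% to 39.6% of a library's entries and were dropped. Per the submitters' processing notes, STAR 2.4, HTSeq 0.6.1, DESeq2 and the build mm9 were used. The sources used here do not give the annotation or the strandedness.

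All 6 libraries were fitted with edgeR 4.0.16 (R 4.3.3): 1 coefficient per group, filterByExpr with a minimum count of 10, TMM, robust quasi-likelihood test, Benjamini-Hochberg adjustment over all genes tested. The SE came from the F statistic. The pipeline was tested on simulated data. CPM are counts over TMM-scaled library sizes, a choice made after results with unscaled sizes had been seen. DESeq2 1.42.0, limma 3.58.1 (voom with sample quality weights), other filters and scaling, a replicate block and leaving out each library were alternatives. Counting intervals are at 95%.

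Named were genes of the model, up to 2 called members per list and direction, and the 12 largest called rises and falls on which leukemia 1 agrees. The largest were taken from genes whose leukemia libraries do not overlap, with at least 10 CPM in the higher leukemia. Predicted genes, receptor segments and Y-linked genes were left out of the largest. Other list members are examples chosen after their values were seen. Of 1107 entries in 39 lists 1094 matched the table. Some genes that the rule names are not reported here. Members, lists and rules were chosen with earlier results of these data known. Neighbours follow the gene order of RefSeq on GRCm38.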

Additional observations from a re-analysis of the deposited data

How the results depend on the processing

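The number of calls depended on the libraries and the tool. edgeR on the 4 leukemia libraries alone called 0 genes (at an unadjusted p under 0.05: 1284 up, 1082 down), DESeq2 called 1325 higher and 1351 lower, and limma voom with quality weights 30 and 66. Over genes on which leukemia 1 agrees these were 0, then 1072 and 931, then 21 and 41. Leaving out 1 library gave 0 to 3909 higher and 0 to 4224 lower calls: 0 without either leukemia 92 or pro-B library (at an unadjusted p under 0.05, 933 to 1253 up and 619 to 1053 down), and at least 3869 and 4106 without either leukemia 1 library. Over agreeing genes, leaving out a leukemia 92 or pro-B library gave 0 (at an unadjusted p under 0.05, 813 to 1053 up and 497 to 793 down); this was not counted without a leukemia 1 library, which the agreement rule needs. Requiring a call without either leukemia 1 library, an alternative chosen after seeing the data, gave 1904 and 1644. In 1416 genes the direction of the call depended on which leukemia 1 library was left out. A replicate block gave 0 calls in either direction, also over agreeing genes (1583 and 1459 at an unadjusted p under 0.05). The correlation of deviations between same-numbered leukemia 1 and leukemia 92 libraries was -0.10. It rests on 1 replicate difference per leukemia, and the leukemia 1 pair differed widely, so it cannot show or exclude a pairing. Of 71 named genes 66 were called and all 66 lost the call in each fit with 0 calls; 48 did with voom. Of the 5 genes of the model, none of them called, DESeq2 called 2. The fits without a leukemia 1 library leave a single library in that group, so for these 5 genes only their differences are given. Aff1 changed direction with the leukemia 1 library used, at -0.37 without replicate 2 and 0.53 without replicate 1. Hoxa9, at 0.75 in the main fit, stood at -0.23 without replicate 1. Mll1, at 0.40 in the main fit, stood at -0.0044 without replicate 2. The cause was not tested. Other scalings and filters kept both counts within 1.5 times. CPM by unscaled library size were used at first and replaced by TMM-scaled CPM after results had been seen, to match the fit. With unscaled CPM, 257 higher and 164 lower calls lay on agreeing genes, the 12 largest rises and 12 largest falls were the same genes, and the pro-B cells lay nearer leukemia 1 for 199 of the higher and 154 of the lower calls. Counting depth limits ratios of genes with 1 to 3 counts in 1 leukemia.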

Other observations

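Some large differences missed the threshold in genes on which the leukemia 1 libraries disagree. Cd14, a coreceptor for bacterial lipopolysaccharide, stood at 714 and 694 CPM in leukemia 92, at 8.37 and 47.5 CPM in leukemia 1 and at 1.89 and 2.81 CPM in the pro-B cells (log2 difference 4.65, SE 0.89, adjusted p 0.066, edgeR). Irf4, a factor of plasma cells and pre-B cells, stood at 667 and 213 CPM in leukemia 1 and at 121 and 126 CPM in leukemia 92 (adjusted p 0.13). These genes were chosen after their values were seen.

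Immunoglobulin light chain segments differed between the leukemias and within leukemia 1. Igkv4-90 was higher in leukemia 92, with 10.2 and 8.92 CPM there against 0.691 and 0.517 CPM in leukemia 1 (log2 difference 3.98, adjusted p 0.0431, edgeR). Iglv1 stood at 0.0406 and 23.7 CPM in leukemia 1 and at 0.370 and 0.140 CPM in leukemia 92. Many other kappa segments, such as Igkv6-23 with 0 and 21.1 CPM, had reads in leukemia 1 replicate 2 and the pro-B cells and 0 in the other 3 leukemia libraries.

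Xist, the RNA that silences 1 X chromosome in female cells, stood at 810 and 578 CPM in leukemia 1, at 1666 and 1567 CPM in leukemia 92 and at 1416 and 1207 CPM in the pro-B cells (log2 difference 1.22, SE 0.20, adjusted p 0.054, edgeR). Reads outside annotated features made up 13.2% and 13.6% of the entries in leukemia 92, against 8.04% and 9.48% in leukemia 1. Genes with predicted Gm numbers made up 5.13% of the genes called higher and 8.95% of those called lower, near or below their 9.49% of all genes tested.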
